A study of Mus musculus with 12 samples.

Results

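Glycogen is built and broken down by a small group of enzymes, several of which exist as paralogs, and 9 of their genes were followed here across 4 organs. The genes were Pygm, Pygl and Pygb (glycogen phosphorylases), Gys1 and Gys2 (glycogen synthases), Ppp1r3a, Ppp1r3b and Ppp1r3c (glycogen-targeting subunits of protein phosphatase 1) and Gbe1 (the branching enzyme). They were taken by symbol from a table of 22276 gene symbols, and all 9 had a value in each of the 12 libraries. RNA had been sequenced from white fat (WAT), brown fat (BAT), liver and quadriceps muscle of male C57BL/6J mice. The mice were on a normal chow diet and given vehicle (NCD-veh), on a high-fat diet and given vehicle (HFD-veh), or on a high-fat diet and given the plant alkaloid narciclasine (HFD-ncls). The mice were 17 wk old, and HFD feeding had started at an age of 8 wk. Once a week from 10 wk of age, over 7 wk, the mice received ncls (1 mg/kg) or veh by gavage, and both HFD groups shared the diet. Neither the number of mice behind a library nor the fed or fasted state at tissue collection is given in the sources used here.

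Glycogen is a branched glucose polymer. Glycogen synthase extends its chains, the branching enzyme adds the branch points, and glycogen phosphorylase releases glucose 1-phosphate from the chain ends. The phosphorylases are named for muscle (Pygm), liver (Pygl) and brain (Pygb), and the synthases are the muscle and general form (Gys1) and the liver form (Gys2). Targeting subunits hold protein phosphatase 1 on the glycogen particle, where it activates synthase and inactivates phosphorylase. In muscle the glucose is burned in the cell, whereas in liver it is released to the blood.

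Each organ and group had 1 library, so there were no replicates, no spread between animals could be given and no difference between groups was tested. Expression was given as FPKM (sequenced fragments relative to exon length and to all fragments mapped in the library), which allows levels of different genes to be compared because it is scaled to gene length. From 9130 to 12052 genes reached 1 FPKM in a library. Steps between low values placed the libraries at relative depths between 0.708 (HFD-ncls WAT) and 1 (HFD-veh muscle), but FPKM holds no counts and no counting interval is given. Changes are log2 ratios of (FPKM + 0.1), for genes with at least 1 FPKM in at least 1 of the 2 libraries compared, and only a ratio past 2-fold is called higher or lower. The 2 contrasts, HFD-veh over NCD-veh and HFD-ncls over HFD-veh, share the HFD-veh library.

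Marker genes placed each library in its labelled organ, but RNA typical of another organ was also present. The brown fat marker Ucp1 was at 739.6 to 769.8 FPKM in BAT and at most 3.92 FPKM elsewhere, and the adipocyte marker Adipoq was at 1599.8 FPKM or more in WAT. Ckm in muscle was at 15744 FPKM or more, and Apoa1 in liver at 9999 FPKM or more. In BAT, 9 skeletal muscle markers stood at a median of 1.96% of their level in muscle of the same group for NCD-veh, at 0.755% for HFD-veh and at 0.112% for HFD-ncls mice. In muscle, 9 liver markers stood at a median of 0.00225%, 0.665% and 0% of their liver level in the same order of groups. The HFD-veh muscle library therefore stood apart from the other muscle libraries. In liver, the muscle markers stood at 0.000375%, 0.0618% and 0.000719%, with the HFD-veh library again the highest. In WAT, the liver markers stood at medians of 0.00233%, 0.0714% and 0.244%. The liver marker Cyp2e1 was kept in these medians, although it was itself abundant in NCD-veh WAT (1053 FPKM). The values of the glycogen genes that such RNA touches are given with each result, also after subtraction of the marker share. Family shares and ratios were not recomputed after subtraction.

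Upstream sequence was examined for the genes with the strongest organ preference or the largest opposite changes. RefSeq promoter sequences (GRCm38.p6 table) matched 7 of the 9 genes, all but Gys2 and Ppp1r3b. The sequences of 3 of them are shown 5′ to 3′ on the strand of the gene, located by exact match in mm9 and ending before the annotated start. Ppp1r3c lies at chr19:36811144-36811344 (minus strand), and the capitals mark CACGTG, a palindromic E-box, 104 bases before the RefSeq start. Ppp1r3a lies at chr6:14705275-14705524 (minus strand), and the capitals mark TATTTAT, the A/T-rich core of sites of the type bound by MEF2 factors, 99 bases before the RefSeq start, where it overlaps a match to TATAAA on the other strand. Pygm lies at chr19:6384158-6384398 (plus strand), and the capitals mark CAGCTG, an E-box of the type bound by myogenic factors, 168 bases before the RefSeq start. CAGCTG was not particular to this place or gene. It also lay 8 bases before the Pygm start, outside the printed stretch. Ppp1r3c, Ppp1r3a (both left in lower case) and Gys1 held it 161, 14 and 206 bases before their starts. Its rate over all promoters was not computed.
Ppp1r3c: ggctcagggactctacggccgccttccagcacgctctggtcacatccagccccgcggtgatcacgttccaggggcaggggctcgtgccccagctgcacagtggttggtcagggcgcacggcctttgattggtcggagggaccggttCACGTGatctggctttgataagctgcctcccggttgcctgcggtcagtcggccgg
Ppp1r3a: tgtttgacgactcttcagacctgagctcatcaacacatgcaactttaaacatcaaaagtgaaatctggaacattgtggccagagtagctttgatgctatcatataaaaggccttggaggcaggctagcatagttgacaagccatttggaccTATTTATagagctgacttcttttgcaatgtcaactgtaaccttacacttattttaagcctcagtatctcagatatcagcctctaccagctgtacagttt
Pygm: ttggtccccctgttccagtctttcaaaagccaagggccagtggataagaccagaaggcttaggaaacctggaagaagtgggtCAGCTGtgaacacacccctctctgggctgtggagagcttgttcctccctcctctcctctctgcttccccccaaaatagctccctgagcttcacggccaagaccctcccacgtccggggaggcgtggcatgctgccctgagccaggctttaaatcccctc
Motifs were searched on both strands in windows of the same length for 32851 promoters. CACGTG was found in 7.15% of them, ACGTG in 19.6%, the general E-box CANNTG in 72.3%, TATTTAT in 5.6% and TAAAAAT, a second MEF2-type core, in 6.53%. TATAAA was found in 13.6%, CCAAT in 37.4%, GGGCGG in 35.7%, TGACG in 20.8% and AGGTCA in 16.3%. Of the 7 matched promoters, CACGTG was found in that of Ppp1r3c alone and TATTTAT in that of Ppp1r3a alone. CANNTG, which also takes in CACGTG, was found in 5, ACGTG, which CACGTG contains, in 4, and TAAAAAT in 0. These matches are letters in a window and no binding was measured.

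The muscle phosphorylase Pygm was by far the most abundant of the 9 genes and the most organ-restricted of the phosphorylases. Its level in muscle was 3417 FPKM with NCD-veh, 3115 FPKM with HFD-veh and 3195 FPKM with HFD-ncls. In BAT it was 37.8, 19.1 and 4.18 FPKM in the same order, which is kept for all values that follow, and in WAT 1.34, 1.43 and 1.45 FPKM. In liver it was 0.281, 2.13 and 0.341 FPKM, so that the ranges of WAT and liver overlapped while muscle and BAT each stood apart.

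Pygl, the liver phosphorylase, was expressed widely outside muscle. Liver held 78.9, 143 and 135 FPKM, BAT held 87.9, 63.7 and 41.0 FPKM, and WAT held 65.7, 45.9 and 43.0 FPKM. The ranges of liver and BAT overlapped, as did those of BAT and WAT. Muscle held 0.267, 1.41 and 0.408 FPKM, far below the other 3 organs.

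Pygb, the brain phosphorylase, had its highest level in WAT, at 127, 55.3 and 58.4 FPKM. It was at 11.7, 14.1 and 11.3 FPKM in BAT, 4.89, 4.99 and 5.17 FPKM in muscle, and 0.559, 0.763 and 0.732 FPKM in liver. No 2 organs overlapped in Pygb. Among the FPKM of all 3 phosphorylases, Pygb led in WAT with 65.4%, 53.9% and 56.8%. Pygl led in BAT with 64.0%, 65.8% and 72.6% and in liver with 98.9%, 98.0% and 99.2%, and Pygm led in muscle with 99.8% in each group. The BAT shares count Pygm at 27.5%, 19.7% and 7.41%. After subtraction of the muscle marker share, Pygm in BAT was at 0, 0 and 0.593 FPKM, so the order of Pygl shares between groups depends on it.

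**Figure D1:**
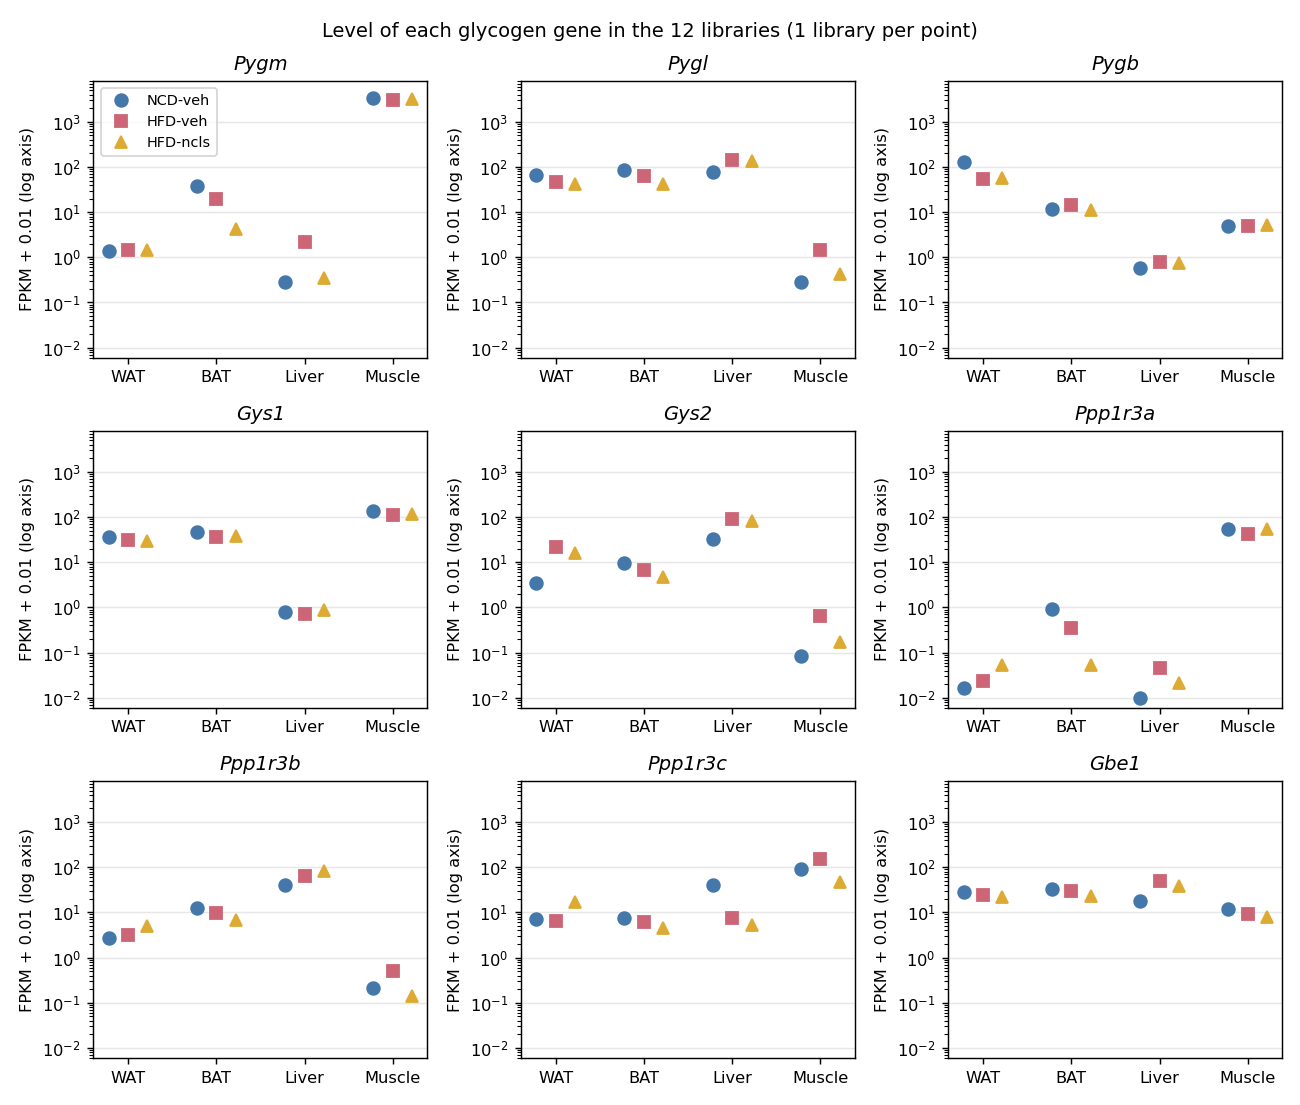
FPKM of the 9 glycogen genes (log axis) in each of the 12 libraries, grouped by organ, with 1 point per library and no error bars because each group had 1 library. Pygm in muscle sits between 3115 and 3417 FPKM, and Pygb ranks WAT, BAT, muscle and liver with no overlap.

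Gys1, the general glycogen synthase, was highest in muscle, at 135, 114 and 115 FPKM. BAT held 46.2, 36.2 and 37.9 FPKM and WAT held 37.2, 31.3 and 30.3 FPKM, with overlapping ranges. Liver held 0.764, 0.692 and 0.889 FPKM, below 1 FPKM in every group.

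Gys2, the liver synthase, was at 32.1, 88.9 and 80.4 FPKM in liver. WAT held 3.43, 22.3 and 15.7 FPKM and BAT held 9.83, 6.72 and 4.63 FPKM, and these ranges overlapped. Muscle held 0.0750, 0.628 and 0.160 FPKM. Gys1 made up 91.6% of synthase FPKM in NCD-veh WAT but 58.4% in HFD-veh and 65.9% in HFD-ncls WAT, Gys2 making up the rest. The Gys1 share was 82.5%, 84.4% and 89.1% in BAT and 99.9%, 99.5% and 99.9% in muscle, whereas Gys2 held 97.7%, 99.2% and 98.9% in liver.

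Ppp1r3a, the striated muscle targeting subunit, was restricted to muscle, at 54.1, 42.0 and 54.4 FPKM. It was below 1 FPKM in all 9 other libraries, the highest being NCD-veh BAT at 0.932 FPKM. Ppp1r3b, the hepatic subunit, was highest in liver at 40.1, 62.4 and 84.5 FPKM, followed by BAT at 12.8, 9.73 and 6.67 FPKM, WAT at 2.70, 3.23 and 4.87 FPKM, and muscle at 0.202, 0.489 and 0.133 FPKM. No 2 neighbouring organs overlapped for Ppp1r3b.

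Ppp1r3c, the widely expressed subunit also called protein targeting to glycogen, differed widely between groups. Muscle held 89.9, 153 and 47.7 FPKM, liver 40.1, 7.46 and 5.24 FPKM, WAT 7.26, 6.40 and 17.3 FPKM, and BAT 7.33, 6.25 and 4.46 FPKM. The ranges of liver, WAT and BAT overlapped. Shares within this family were taken over all 7 subunit genes, Ppp1r3a to Ppp1r3g. In liver, Ppp1r3b and Ppp1r3c were nearly equal in NCD-veh mice (49.1% and 49.0%), whereas Ppp1r3b held 84.1% and 88.0% and Ppp1r3c 10.1% and 5.45% in HFD-veh and HFD-ncls mice. In muscle, Ppp1r3c held 61.5%, 77.4% and 45.7% and Ppp1r3a 37.0%, 21.2% and 52.1%, so that Ppp1r3a led in the HFD-ncls library only. Ppp1r3b led in BAT with 48.6%, 43.9% and 40.6%. In WAT the leading subunit was Ppp1r3e (35.2%) in NCD-veh, Ppp1r3d (34.5%) in HFD-veh and Ppp1r3c (45.6%) in HFD-ncls mice. Ppp1r3c was close behind the lead in NCD-veh WAT (32.2%) and held 25.5% in HFD-veh WAT.

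**Figure D2:**
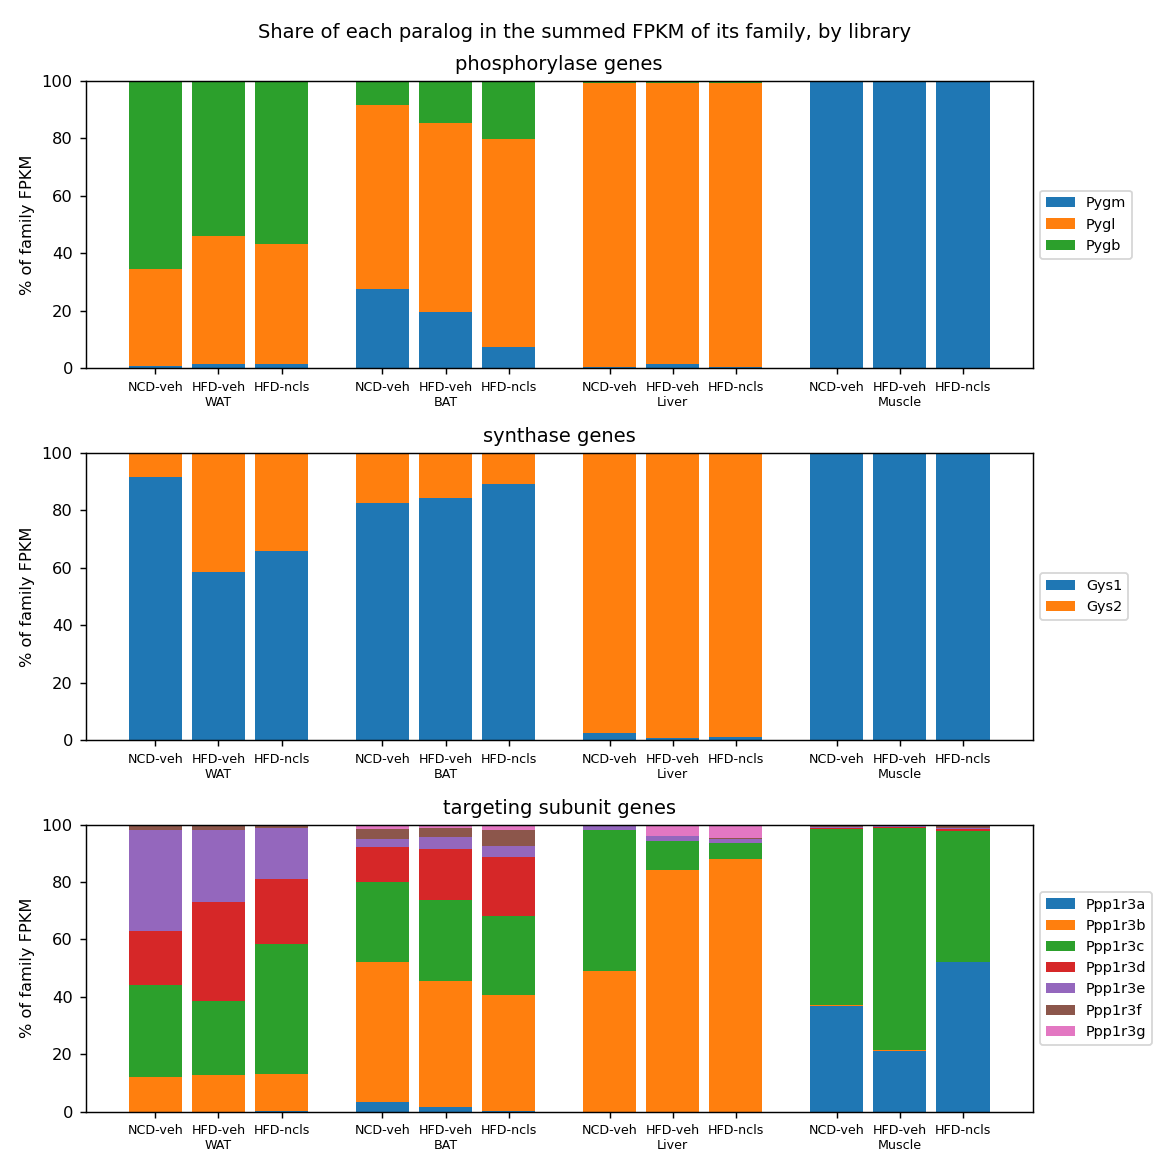
Share of each paralog in the summed FPKM of its family (percent), for phosphorylases, synthases and all 7 targeting subunits, in the 12 libraries. Liver and muscle each use 1 phosphorylase and 1 synthase at over 97%, and the shares in WAT and BAT are mixed.

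Gbe1, which has no paralog, varied least between organs. It was at 17.9, 49.96 and 38.5 FPKM in liver, 33.1, 29.3 and 23.2 FPKM in BAT, 28.9, 24.6 and 21.4 FPKM in WAT, and 12.05, 9.42 and 7.93 FPKM in muscle. Only muscle stood apart from the other organs. The ratio of summed synthase to summed phosphorylase FPKM was 0.0396, 0.0366 and 0.0360 in muscle. It was 0.412, 0.614 and 0.599 in liver, 0.408, 0.444 and 0.753 in BAT, and 0.209, 0.523 and 0.447 in WAT, so that phosphorylase mRNA exceeded synthase mRNA in every library. The BAT ratios count 37.8, 19.1 and 4.18 FPKM of Pygm and were not recomputed after subtraction of the muscle marker share.

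To see how HFD feeding bore on these genes, HFD-veh was compared with NCD-veh mice, and the liver had the most changes past 2-fold. Of the 6 genes that passed the filter in liver, 3 were higher and 1 was lower, where 5.12% of the 10016 genes tested were past 2-fold (2.86% higher and 2.27% lower). Their median log2 change was 1.16, against 0.04 over all genes tested. This median and the 3 higher genes include Pygm (log2 2.55), which could pass the filter only by being higher. Gbe1 was 2.78-fold higher (17.9 to 49.96 FPKM, log2 1.48) and Gys2 2.76-fold higher (32.1 to 88.9 FPKM, log2 1.47). Ppp1r3c was 5.32-fold lower (40.1 to 7.46 FPKM, log2 -2.41) and ranked 25th of the 227 lower genes. Pygl and Ppp1r3b had log2 changes of 0.86 and 0.63 and did not pass 2-fold.

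The third higher gene in liver, Pygm, passed the filter through the HFD-veh library alone (0.281 to 2.13 FPKM, log2 2.55), so it had to differ. Its level there was 0.0684% of that in HFD-veh muscle, within the 0.0378% to 0.0746% of the muscle markers. At the median marker share, muscle RNA would hold 1.93 FPKM of Pygm, and 1 gene fewer passed the filter after subtraction. Gys2, Gbe1 and Ppp1r3c kept their calls after subtraction.

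In WAT, 8 genes passed the filter, 1 was higher and 1 was lower with HFD, and 9.11% of 12208 genes were past 2-fold (5.24% higher and 3.87% lower). Gys2 was 6.36-fold higher (3.43 to 22.3 FPKM, log2 2.67) and ranked 89th of 640 higher genes. Pygb was 2.29-fold lower (127 to 55.3 FPKM, log2 -1.19). The median of the 8 genes was -0.21, against 0.03 over all genes. At the median share of the liver markers, liver RNA would hold 0.0634 FPKM of the 22.3 FPKM of Gys2 in HFD-veh WAT. The summed FPKM of 8 adipocyte markers in WAT was 28581, 20113 and 18492 in the order NCD-veh, HFD-veh, HFD-ncls. These markers did not move together between NCD-veh and HFD-veh WAT. Cfd went from 8163 to 653 FPKM, whereas Lep (300 to 1199 FPKM) and Cidec (1685 to 2142 FPKM) were above their NCD-veh levels. The other adipocyte markers, Adipoq, Plin1, Fabp4, Lipe and Retn, were below theirs. The summed FPKM of 6 macrophage markers was 628, 876 and 1101 in the same order of groups. Most of this sum was Lyz2, at 489, 551 and 747 FPKM. The median of the 6 markers was 32.40, 47.29 and 48.03 FPKM, nearly the same in HFD-veh and HFD-ncls WAT. Cd14 was below its NCD-veh level in both HFD groups, whereas the other macrophage markers were above theirs. Every marker of both lists was detected in WAT in each group, and the part of this makeup in the values of Pygb and Gys2 was not tested. In whole tissue, fewer cells of a type and less RNA per cell cannot be told apart.

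In BAT, none of the 8 genes that passed the filter was past 2-fold with HFD, where 4.29% of 10443 genes were (2.28% higher and 2.01% lower). Their changes ran from -0.98 (Pygm) to 0.26 (Pygb). The median, Pygm included, was -0.37, against -0.04 over all genes. Of the 8 genes, 7 were below 0, and the share of all genes below 0 was not computed. After subtraction of the muscle marker share, Pygm was at 0 FPKM in NCD-veh and in HFD-veh BAT and did not pass the filter. In muscle, 1 of 7 genes was higher and none lower, where 4.11% of 9585 genes were past 2-fold (3.14% higher and 0.97% lower). This gene was Pygl (0.267 to 1.41 FPKM, log2 2.04), which passed the filter through the HFD-veh library alone. Ppp1r3c in muscle had a log2 change of 0.77 (89.9 to 153 FPKM) and did not pass 2-fold. The median in muscle, Pygl included, was -0.13, against 0.03 over all genes.

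Pygl in muscle was highest in the HFD-veh library, where the liver markers were also highest. Its level there was 0.983% of that in HFD-veh liver, above the 0.331% to 0.795% of the markers. Liver RNA at the median marker share would hold 0.950 of its 1.41 FPKM. In NCD-veh and HFD-ncls muscle Pygl stood at 0.339% and 0.303% of its liver level, where the marker medians were 0.00225% and 0%. The other liver-type genes, Gys2 (0.628 FPKM, 0.707% of the liver level) and Ppp1r3b (0.489 FPKM, 0.783%), were also highest in the HFD-veh muscle library. After subtraction of the marker share none of the muscle genes was past 2-fold with HFD. Pygl then stood at 0.265, 0.455 and 0.408 FPKM, below the filter, and the part of liver RNA in its change was not tested.

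**Figure D3:**
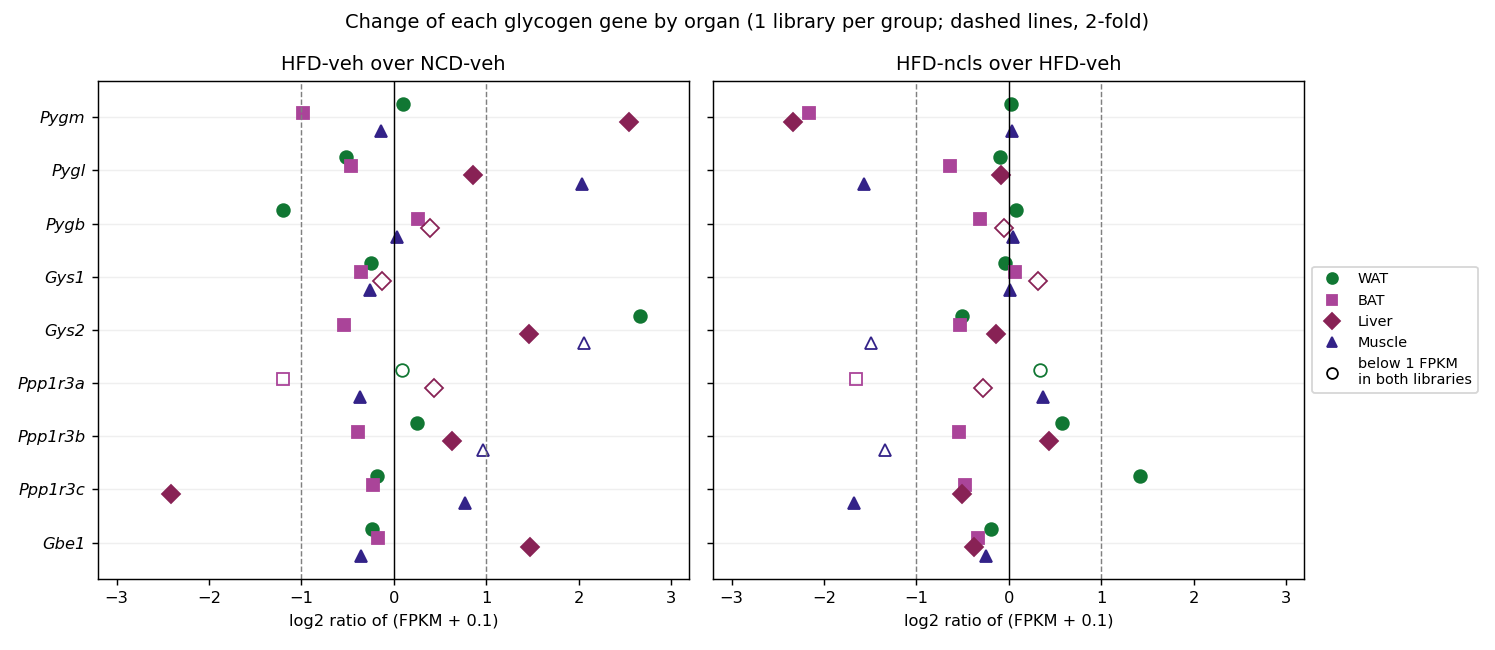
Log2 ratio of (FPKM + 0.1) for each gene in HFD-veh over NCD-veh (left) and HFD-ncls over HFD-veh (right), by organ, with open symbols for genes below 1 FPKM in both libraries and dashed lines at 2-fold. Ppp1r3c in liver (-2.41) lies opposite Gys2 (1.47) and Gbe1 (1.48) on the left, and Ppp1r3c lies on opposite sides in WAT (1.42) and muscle (-1.68) on the right.

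To see how ncls bore on the same genes under HFD, HFD-ncls was compared with HFD-veh mice, and Ppp1r3c was past 2-fold in 2 organs, in opposite directions. In muscle it was 3.21-fold lower in HFD-ncls (153 to 47.7 FPKM, log2 -1.68), ranking 195th of 245 lower genes. In WAT it was 2.68-fold higher (6.40 to 17.3 FPKM, log2 1.42), ranking 87th of 181 higher genes. The difference between the 2 organs was not tested. In liver and BAT its log2 changes were -0.50 and -0.48, not past 2-fold. After subtraction of the muscle marker share they were -0.48 in liver and -0.20 in BAT. Its HFD-ncls level was above that of NCD-veh mice in WAT (17.3 against 7.26 FPKM) and below it in muscle (47.7 against 89.9 FPKM). At the median marker share, liver RNA would hold 0.0128 of the 17.3 FPKM in HFD-ncls WAT and 0.0496 of the 153 FPKM in HFD-veh muscle.

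In muscle, 7 genes passed the filter and 2 were lower with ncls, where 3.8% of 9694 genes were past 2-fold (1.27% higher and 2.53% lower). The second was Pygl (1.41 to 0.408 FPKM, log2 -1.57), which again passed through the HFD-veh library, where the liver markers were also highest. The part of liver RNA in this call was not tested. Pygm, Gys1 and Pygb had log2 changes between 0.02 and 0.05, and Ppp1r3a had 0.37. The median of the 7 genes, Pygl included, was 0.02, against 0.04 over all genes. After subtraction Ppp1r3c alone was past 2-fold in muscle.

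In WAT, 1 of 8 genes, Ppp1r3c, was higher with ncls and none was lower, where 1.7% of 12152 genes were past 2-fold (1.49% higher and 0.214% lower). Gys2 stayed below its HFD-veh level (22.3 to 15.7 FPKM, log2 -0.51) and Ppp1r3b was above it (3.23 to 4.87 FPKM, log2 0.58), neither past 2-fold. Pygb, which was lower with HFD, had a log2 change of 0.08. The median of the 8 genes was -0.01, against 0.04 over all genes.

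In BAT, 1 of 8 genes, Pygm, was lower with ncls, where 1.97% of 10329 genes were past 2-fold (0.261% higher and 1.7% lower). Pygm was 4.48-fold lower (19.1 to 4.18 FPKM, log2 -2.16). The changes of 7 of the 8 genes were below 0, among them Pygl (63.7 to 41.0 FPKM, log2 -0.64), Ppp1r3b (-0.54) and Gys2 (-0.53). The median, Pygm included, was -0.50, against -0.02 over all genes, and the share of all genes below 0 was not computed. Only Gys1 was above 0 (36.2 to 37.9 FPKM, log2 0.06).

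Pygm in BAT followed the muscle markers. It stood at 1.11%, 0.612% and 0.131% of its level in muscle. The 9 markers ranged over 1.19% to 5.32%, 0.439% to 1.72% and 0.0706% to 0.144% in the same groups. Ppp1r3a, the other muscle-type gene, stood at 1.72%, 0.831% and 0.0780% of its muscle level. Gys1 instead stood at 34.1%, 31.9% and 32.9%, above every muscle marker. Muscle RNA at the median marker share would hold 66.9, 23.5 and 3.59 FPKM of Pygm, more than was measured in the first 2 libraries, and after subtraction Pygm did not pass the filter in BAT.

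In liver, 1 of 6 genes was lower with ncls and none higher, where 2.31% of 9956 genes were past 2-fold (1% higher and 1.31% lower). This gene was again Pygm (2.13 to 0.341 FPKM, log2 -2.34), which passed the filter through the HFD-veh library, where the muscle markers were also highest, and was not called after subtraction. The part of muscle RNA in this call was not tested. Ppp1r3b had a log2 change of 0.44 (62.4 to 84.5 FPKM), Ppp1r3c -0.50 (7.46 to 5.24 FPKM), Gbe1 -0.37 (49.96 to 38.5 FPKM) and Gys2 -0.14 (88.9 to 80.4 FPKM). Gbe1, Gys2 and Ppp1r3c, which differed with HFD in liver, thus stayed nearer to HFD-veh than to NCD-veh in the HFD-ncls library, Ppp1r3c lying farther from NCD-veh than before (40.1 FPKM in NCD-veh). The median of the 6 genes, Pygm included, was -0.26, against 0.02 over all genes.

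**Figure D4:**
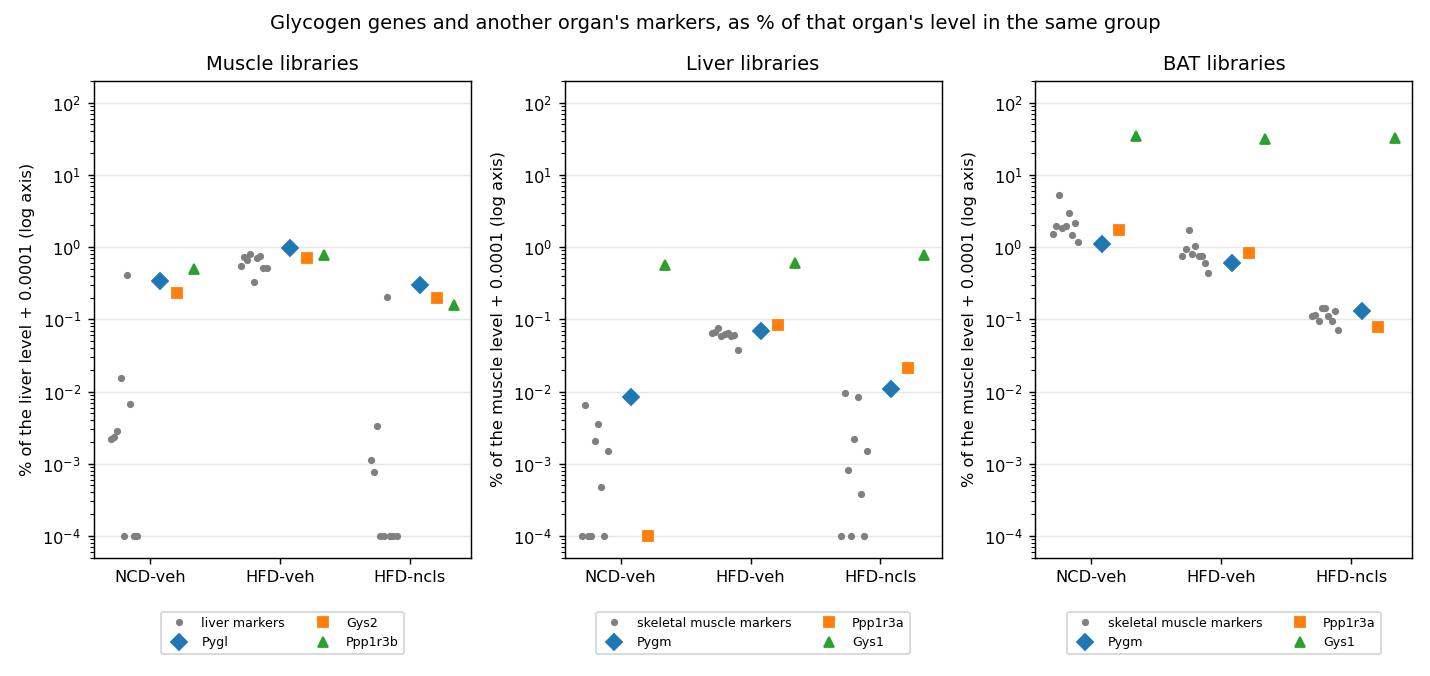
Level of selected glycogen genes and of the markers of another organ (grey points) as a percentage of their level in that organ in the same group (log axis, 0.0001 added), in muscle, liver and BAT libraries. Pygm in BAT falls with the muscle markers from 1.11% to 0.131% while Gys1 stays between 31.9% and 34.1%.

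A wider list of 24 symbols of glycogen metabolism was examined beside the 9, of which 23 were found, since Gyg and Gyg1 name the same gene and the table lists it as Gyg. Over both contrasts and 4 organs, 153 of its values passed the filter, of which 3 were higher and 2 lower past 2-fold. The 9 genes had 58 values, of which 6 were higher and 6 lower, and over all genes 4.12% of 84383 values were past 2-fold. Of these 12 calls of the 9 genes, 5 were lost after subtraction of the other organ's share (Pygm in liver in both contrasts and in BAT with ncls, and Pygl in muscle in both contrasts). In liver, Ppp1r3g, another targeting subunit, was 8.14-fold higher with HFD (0.260 to 2.83 FPKM, log2 3.03) and stood at 4.59 FPKM in HFD-ncls mice. Epm2a, which encodes the glycogen phosphatase laforin, was higher in the same contrast (0.402 to 1.49 FPKM, log2 1.67). Both passed the filter through the HFD-veh library alone, so they had to differ.

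In WAT, the targeting subunit Ppp1r3d was higher with HFD (4.22 to 8.64 FPKM, log2 1.02), but not past 2-fold after median rescaling (log2 0.99). Phkg1, the muscle-type catalytic subunit of phosphorylase kinase, was lower with HFD in WAT (7.17 to 2.65 FPKM, log2 -1.40) and lower with ncls in BAT (1.16 to 0.405 FPKM, log2 -1.32). In BAT it passed the filter through the HFD-veh library alone, so it had to be lower. Phkg1 was at 202, 217 and 185 FPKM in muscle, and the part of muscle RNA in its BAT value was not tested.

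The other enzymes had organ preferences of their own. Muscle had the highest levels of Gyg, the glycogenin primer (195, 225 and 226 FPKM). The phosphorylase kinase subunit Phka1 was at 156, 130 and 126 FPKM in muscle and below 1 FPKM in liver. In liver, the subunit Phkg2 was at 19.9, 12.4 and 13.6 FPKM, and Phkg1 was at 0.195 FPKM or less. Muscle and liver thus used different phosphorylase kinase catalytic subunits as well as different phosphorylases. Ugp2, which makes UDP-glucose for the synthase, was at 65.2, 119 and 77.8 FPKM in liver, with log2 changes of 0.87 with HFD and -0.61 with ncls that were not past 2-fold.

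**Figure D5:**
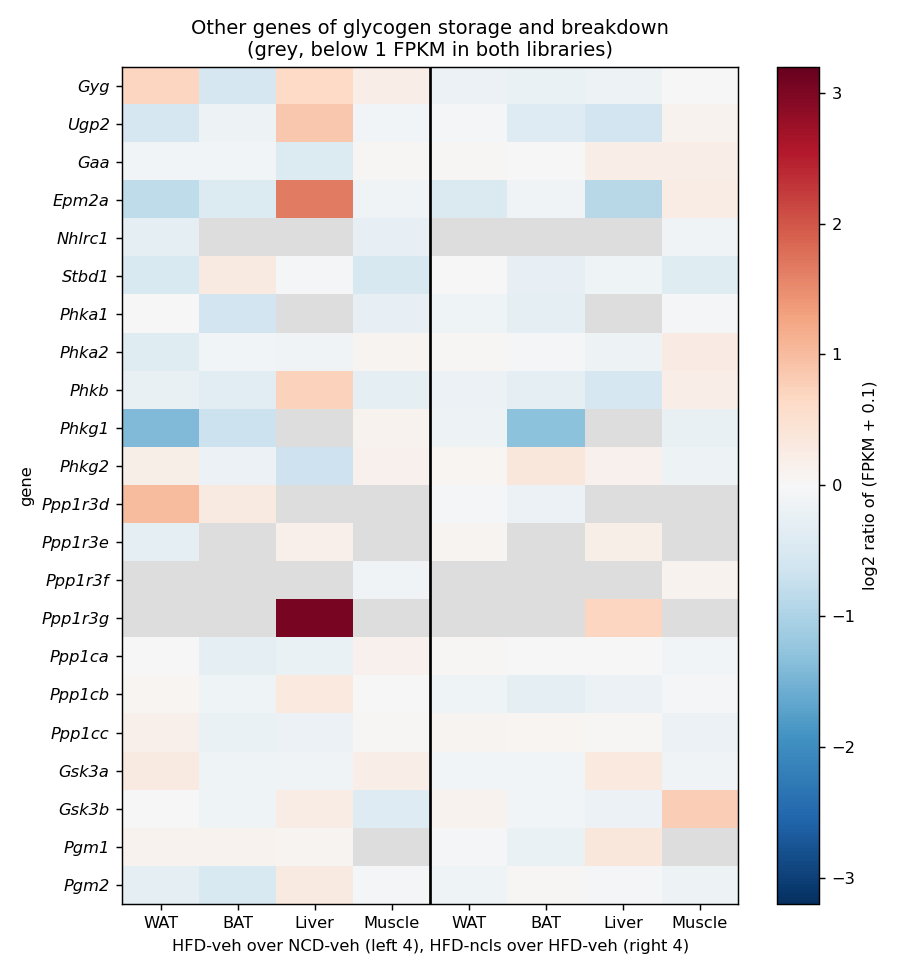
Log2 ratio of (FPKM + 0.1) for genes of the wider list in each organ and contrast, as a colour scale, 1 library per group. The strongest colour is Ppp1r3g in liver with HFD (3.03).

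The pattern of each gene over the 12 libraries was compared with those of 13648 other genes by Pearson's r on log2(FPKM + 0.1), as a description in which libraries of an organ are not independent. Pygm was most like Mybpc2 (r = 0.998) and Hrc (0.997), and Ppp1r3a most like Myh13 (0.999) and Asb5 (0.998). Gys2 was most like Acsl5 (0.980) and Sh3bgrl2 (0.978), Ppp1r3b most like Decr2 and Pm20d1 (0.988 each), and Pygl most like Slc25a5 (0.991) and Fkbp2 (0.990). Pygb was most like Clstn1 (0.995) and Gjc1 (0.993), and Gys1 most like Lynx1 (0.992). The lowest best matches were those of Ppp1r3c, with Pgpep1l (0.963) and Frat2 (0.936), and of Gbe1, with Hspd1 (0.944) and Abhd6 (0.939). Among the 9 genes themselves the highest r was between Pygm and Ppp1r3a (0.984), followed by Gys2 and Ppp1r3b (0.940) and by Pygl and Gys2 (0.921).

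In mm9, Pygm (chr19:6384399-6398459) and Ppp1r3c (chr19:36806227-36811143) share chromosome 19, but lie far apart, and Gys2 (chr6:142371133-142421629) and Ppp1r3a (chr6:14663822-14705274) share chromosome 6. The others are Pygl (chr12:71291798-71332475), Pygb (chr2:150612471-150657494), Gys1 (chr7:52690214-52711989), Ppp1r3b (chr8:36438795-36451178) and Gbe1 (chr16:70314194-70569961), all annotated as protein-coding.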

How the data were processed

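Each of 12 RNA-seq libraries, 1 per organ and group, was mapped from its label. The authors mapped the reads to mm9 by TopHat 2.0.11, estimated RefSeq gene expression by Cufflinks and deposited it as FPKM. No count test was therefore applied and no p-value is given. No scaling between libraries beyond FPKM is stated. All columns belonged to samples of the series.

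Log2 ratios used a pseudocount of 0.1, an FPKM of at least 1 in either library and a threshold of 2-fold, over all genes with values. Of 22276 symbols, 86 lacked a value in at least 1 library, among them Alb in liver and Myh4 in muscle, so 9 markers were used for each organ. Another organ's share was the median, over these markers, of FPKM in the library divided by FPKM in the source organ of the same group. Its subtraction, and the alternatives for the wider list, were chosen after seeing the data. Approximate depth came from steps of low FPKM values and annotated transcript lengths. Promoters covered 250 bases before each RefSeq start and 50 bases after it, and 10 motifs were searched.

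The members, the wider list, the markers and the motifs were chosen with earlier results of these data known. Named genes were the 9 members, wider-list genes past 2-fold, the leading paralog of each role and, for each member, the 2 genes with the highest r. Some results under this rule are not reported here. Alternatives covered the pseudocount, filter, threshold and median rescaling. For the family shares only, the HFD-ncls library in WAT or the HFD-veh library in the other organs was left out, and no other library was. The calling script was tested on simulated data. Tables were computed in Python (3.11.15) using pandas (2.3.3), numpy (2.4.6) and scipy (1.17.1), and plots were drawn in matplotlib (3.10.9).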

Additional observations from a re-analysis of the deposited data

Results flagged for a closer look

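With ncls under HFD, Ppp1r3c moved in opposite directions in WAT and muscle, with a log2 change of 1.42 in WAT (6.40 to 17.3 FPKM) and -1.68 in muscle (153 to 47.7 FPKM). Each organ had 1 library per group, and the difference between the organs was not tested.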

How the results depend on the processing

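Of 74 alternative values of the counts and shares, 52 did not move (a count by over 1.5 times, a share by its spread or its leading gene) and 22 did. Median rescaling and a pseudocount of 0.01 moved no count by over 1.5 times, although rescaling lost Ppp1r3d in WAT (0.99). With a threshold of 1.4-fold, the number of genes called became 3 in WAT, 4 in BAT, and 2 in liver with ncls, and 2 in BAT and 2 in muscle with HFD. Without the filter it became 1 in BAT (Ppp1r3a) and 2 in muscle with HFD, and 2 in BAT and 4 in muscle with ncls. With an FPKM of at least 5 it became 0 in muscle with HFD, and 0 in liver and 1 in muscle (Ppp1r3c) with ncls. With a pseudocount of 1 it became 0 in muscle with HFD and 1 with ncls, since Pygl was at 0.92 and -0.77. After subtraction of the other organ's share it became 0 in muscle with HFD, and 0 in BAT, 0 in liver and 1 in muscle with ncls. The count of 5 for the wider list became 2 with a pseudocount of 1 (Ppp1r3d at 0.89, Epm2a at 0.83 and Phkg1 in BAT at -0.62 were lost), 2 with an FPKM of at least 5 and 24 at 1.4-fold. Without HFD-ncls WAT, the leading targeting subunit by median share in WAT changed from Ppp1r3c to Ppp1r3e. The median share of Ppp1r3c was then 28.8%, against 32.2% with all WAT libraries. The call of Ppp1r3c in muscle with ncls was kept under every alternative run. Rescaling changed the sign of 4 changes within 0.05 of 0 (log2). Depth limits values near 0, such as Gys2 in muscle at about 5 to 44 fragments. No paired analysis was possible within an organ because each organ and group had 1 library, and a pairing across organs was not run.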
